A study of Mus musculus with 22 samples.

Results

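Semaphorins, ephrins and Slits are guidance ligands, and plexins, neuropilins, Eph receptors and Robo receptors are the proteins that read them. Of the 18193 genes on the arrays that were named by a probe set with 1 symbol, 60 had a symbol beginning with Sema, Plxn, Epha, Ephb, Efna, Efnb or Robo, or were Slit1 to Slit3, Nrp1 or Nrp2. They comprised 31 ligands, 28 receptors and 1 antisense transcript, Plxna4os1. The brightest probe set of a gene stood for it, a probe set being a group of short probes that matches a transcript. Of the 60 members 40 were bright enough to test, 23 ligands (14 semaphorins, 8 ephrins and Slit2) and 17 receptors (8 plexins, 2 neuropilins, 5 Eph receptors, Robo1 and Robo2). The 20 others, 8 ligands, 11 receptors and the antisense transcript, lay under the limit set on dim genes.

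RNA came from cultured cerebellar granule cells of postnatal day 7 mouse pups. The labels give granule neuron progenitors as the cell type and CGNs, granule neurons, in the titles, and by the study's account purified progenitors became postmitotic granule neurons in culture unless an agonist of Smoothened kept them dividing. The pups were of the strain that the labels spell C56Bl6/J. The RNA was hybridised to 22 arrays in 3 separate experiments with their own controls. In the Chd7 experiment 4 mutant arrays, Atoh1-Cre with Chd7 f/f by the study's methods, stood against 4 controls that the labels call wild type and the study describes as Chd7 f/f. Atoh1-Cre deletes in the granule lineage and not in Purkinje cells, so other cells of a culture keep the gene. In the drug experiment 4 arrays of cells given ICRF-193, an inhibitor of type II topoisomerases, at 10 µM for 12 h stood against 4 of cells given the solvent DMSO. In the third experiment 3 arrays of cells cultured with Smo2 stood against 3 cultured without it. Smoothened is the transducer of hedgehog signalling, and Smo2 is used here as the label spells it, since its identity with the agonist is not stated.

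Class 3 semaphorins are secreted and act through neuropilins joined to plexins, while the transmembrane semaphorins bind plexins directly. A-type ephrins are tethered to the membrane by a lipid, B-type ephrins span it, and both can signal back into the cell that carries them when they meet an Eph receptor. Slits are secreted proteins that repel axons and migrating cells through Robo receptors. In the developing cerebellum these systems are known for the inward migration of granule cells, where Sema6a and Plxna2 meet, and for the progenitor layer, where Plxnb2 is a receptor of Sema4c and Sema4g.

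Signals are given on the log2 scale after quantile normalization, so a change of 1 is a 2-fold difference, and levels are compared within a probe set only. Every change was fitted with limma, two-sided, over 10771 genes, and a member was called when its Benjamini-Hochberg adjusted p was under 0.05. Array medians before normalization were between 6.33 and 6.81. In the Chd7 and drug experiments the arrays fell into 2 sets, replicates 1 and 2 and replicates 3 and 4, that deviated together in treated and control samples, and what the sets are is not given. Values within each set are therefore given beside the results. Of the 2 Chd7 probe sets the dimmer read 11.33, 11.27, 11.66 and 11.72 in control and 8.99, 9.02, 9.89 and 9.98 in mutant arrays, with no overlap. The brighter one read 11.89 ± 0.13 and 11.65 ± 0.25 (mean ± SD, n = 4 each). Where either lies with respect to the deletion is not stated. Of the 9 granule lineage markers on the array 8 were above the limit in all, and Gabra6, a receptor subunit of mature granule neurons, was not.

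In the Chd7 mutant the 8 members that passed were 4 ligands and 2 receptors that fell and 2 receptors that rose. Secreted semaphorins Sema3d and Sema3a, the transmembrane ephrin Efnb2 and the receptor Epha3 were lower by 2.26-fold to 3.17-fold, and Nrp1 and Plxnd1, which can form 1 receptor complex, were higher by 1.91-fold and 1.77-fold. The 8 called members were 20% of the 40 tested, against 8.89% of all genes, with 6 members lower (15%) where 3.83% of genes were lower, and 2 higher (5%) where 5.07% were higher. The median change was -0.14 over the 23 ligands and 0.02 over the 17 receptors, against 0.00 over all genes. With arrays centred on their medians in place of quantile normalization the receptor median turned to -0.06, members split 9 lower to 2 higher, and all genes 551 lower to 391 higher in place of 412 to 546. No test of ligands against receptors as groups was made.

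**Figure D1:**
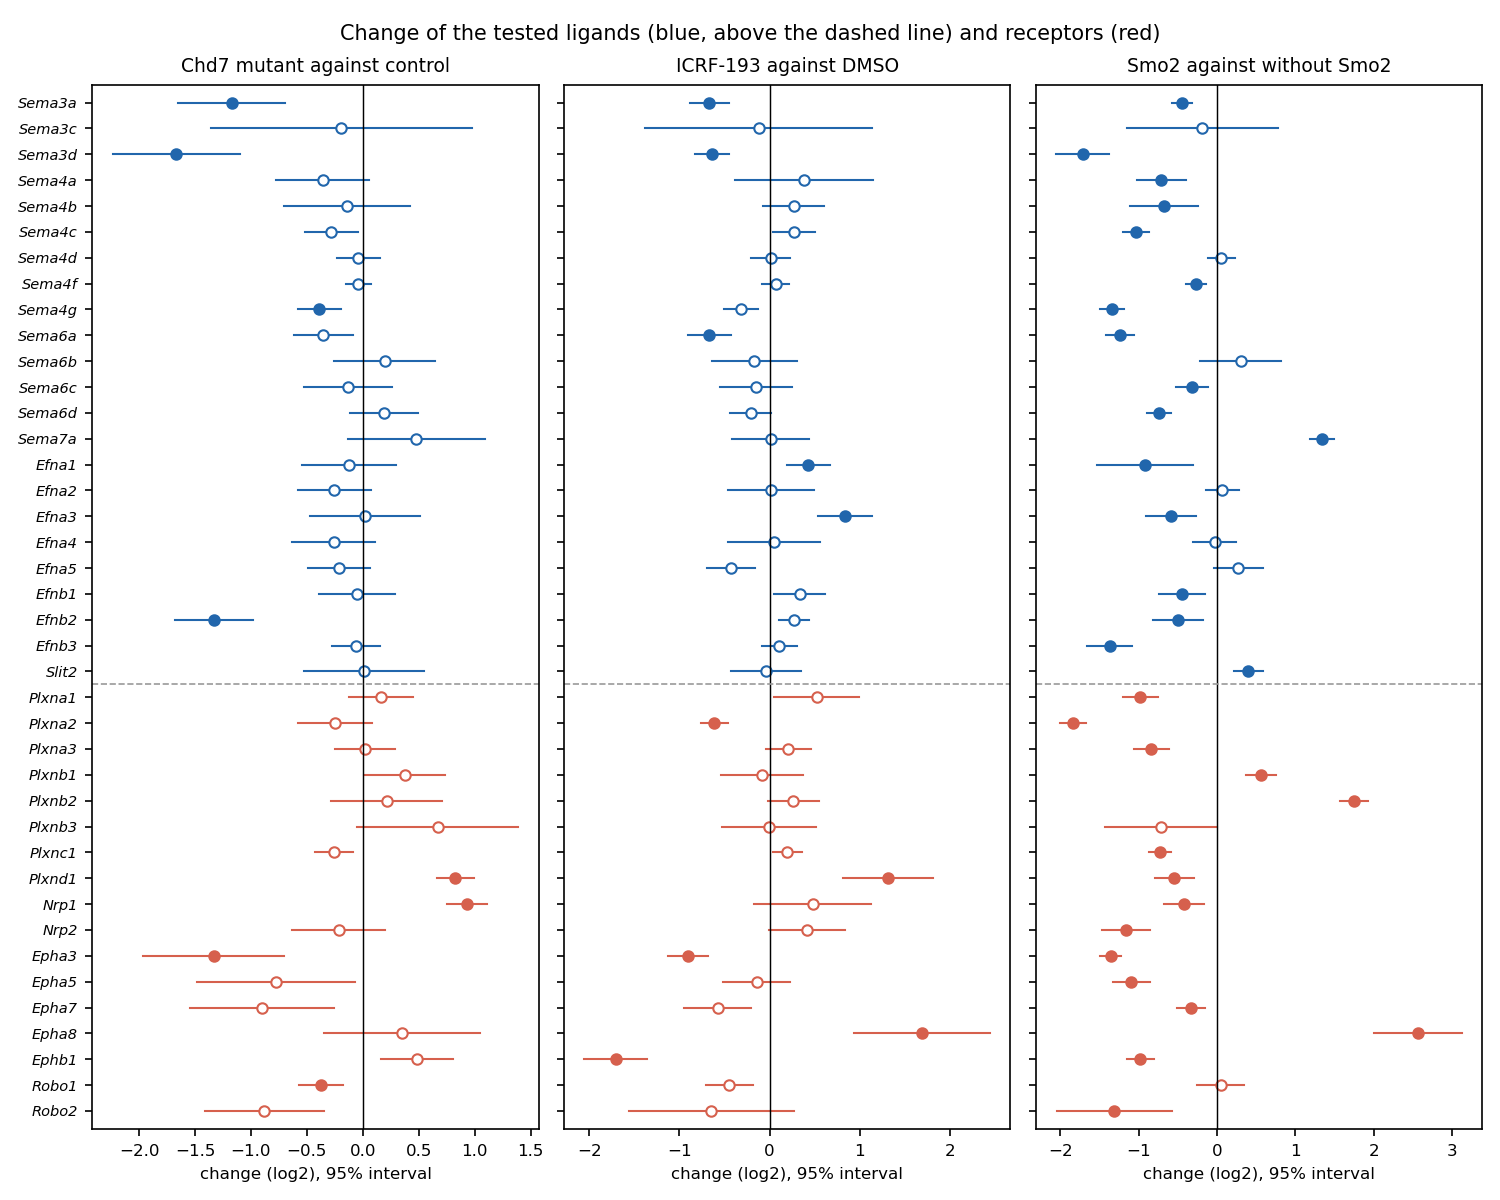
Change on the log2 scale (point) with its 95% interval (line) for the 23 ligands (blue, above the dashed line) and 17 receptors (red) that were tested, in the Chd7 mutant, with ICRF-193 and with Smo2, each panel on its own scale. Filled points are called members, 8 in the mutant, 10 with ICRF-193 and 32 with Smo2, where 27 of the 32 lie to the left of 0.

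Among the ligands, Sema3d, a secreted semaphorin that uses neuropilins, had 11.34, 11.45, 11.83 and 11.80 in control and 9.55, 9.45, 10.26 and 10.49 in mutant arrays. It fell by 1.67 (95% interval -2.24 to -1.10, limma adjusted p = 0.00604). All mutant arrays lay under all controls, and replicates 1 and 2 were lower than replicates 3 and 4 in both groups. Sema3a, the founding axon repellent of the family, had 8.32, 8.01, 8.25 and 8.07 in control and 7.15, 6.34, 7.10 and 7.37 in mutant arrays and fell by 1.17 (95% interval -1.65 to -0.70, limma adjusted p = 0.0127), with mutant replicate 2 the lowest array. Efnb2, a ligand of EphB receptors and Epha4, had 10.99, 10.76, 10.64 and 10.65 in control and 9.27, 9.14, 9.49 and 9.81 in mutant arrays. Its fall of 1.33 (95% interval -1.68 to -0.99, limma adjusted p = 0.00183) left every mutant array under every control. Sema4g, a transmembrane ligand of Plxnb2, had 9.94, 10.07, 9.92 and 9.92 in control and 9.42, 9.61, 9.50 and 9.77 in mutant arrays, a smaller fall of 0.39 (95% interval -0.58 to -0.19, limma adjusted p = 0.0284).

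Of the receptors, Epha3, which binds A-type ephrins, had 11.27, 11.22, 11.14 and 11.08 in control and 10.33, 10.43, 9.21 and 9.40 in mutant arrays and fell by 1.33 (95% interval -1.96 to -0.70, limma adjusted p = 0.0230). The mutant arrays split by set, with a change of -0.86 in replicates 1 and 2 and -1.81 in replicates 3 and 4. Robo1, a Slit receptor, had 9.79, 9.66, 9.76 and 9.67 in control and 9.26, 9.16, 9.45 and 9.51 in mutant arrays and fell by 0.37 (95% interval -0.57 to -0.17, limma adjusted p = 0.0355). In the other direction Nrp1, the neuropilin that binds Sema3a, rose by 0.93 (95% interval 0.75 to 1.11, limma adjusted p = 0.000709), from 8.73, 8.84, 8.77 and 8.72 in control to 9.58, 9.67, 9.63 and 9.89 in mutant arrays. Plxnd1, the plexin that Sema3e binds, rose by 0.82 (95% interval 0.66 to 0.99, limma adjusted p = 0.000814), from 8.76, 8.81, 8.92 and 8.89 in control to 9.54, 9.74, 9.77 and 9.64 in mutant arrays. Both receptors thus rose in the arrays in which the ligands Sema3a and Sema3d fell. Groups did not overlap for 13 of the 40 members (32.5%, against 19.6% of all genes), the 8 called and 5 more. Those 5 were -0.90 for Epha7, -0.88 for Robo2, -0.78 for Epha5, -0.26 for Plxnc1 and 0.48 for Ephb1, with limma adjusted p between 0.052 and 0.155.

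Within the sets all 8 called members kept their sign, from -1.89 for Sema3d to 1.02 for Nrp1. Taking the mean of each set as 1 sample left 0 calls in limma (without adjustment, 7 members were lower and 2 higher at p under 0.05, and the adjusted p of the 8 ran from 0.214 to 0.456). The set as a block gave 12 lower and 5 higher. Over all genes the set means gave 0 calls, and the set block took lower genes from 412 to 1010 and higher from 546 to 1354. Leaving out 1 array took the count of lower members to between 3 and 5, with 3 when control replicate 1, 2 or 4 was left out. Over all genes these fits gave between 215 and 320 lower, in place of 412. Epha3 lost its call without any of the 4 controls or without mutant replicate 4 (adjusted p 0.0526 to 0.0659), and Robo1 and Sema4g lost theirs in 7 of 8 such fits each, all but the one without mutant replicate 4 (adjusted p up to 0.0963 and 0.0738). The other bright probe sets of the called members, 8 in all, had the same sign, and 7 passed in a fit of 19714 probe sets.

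**Figure D2:**
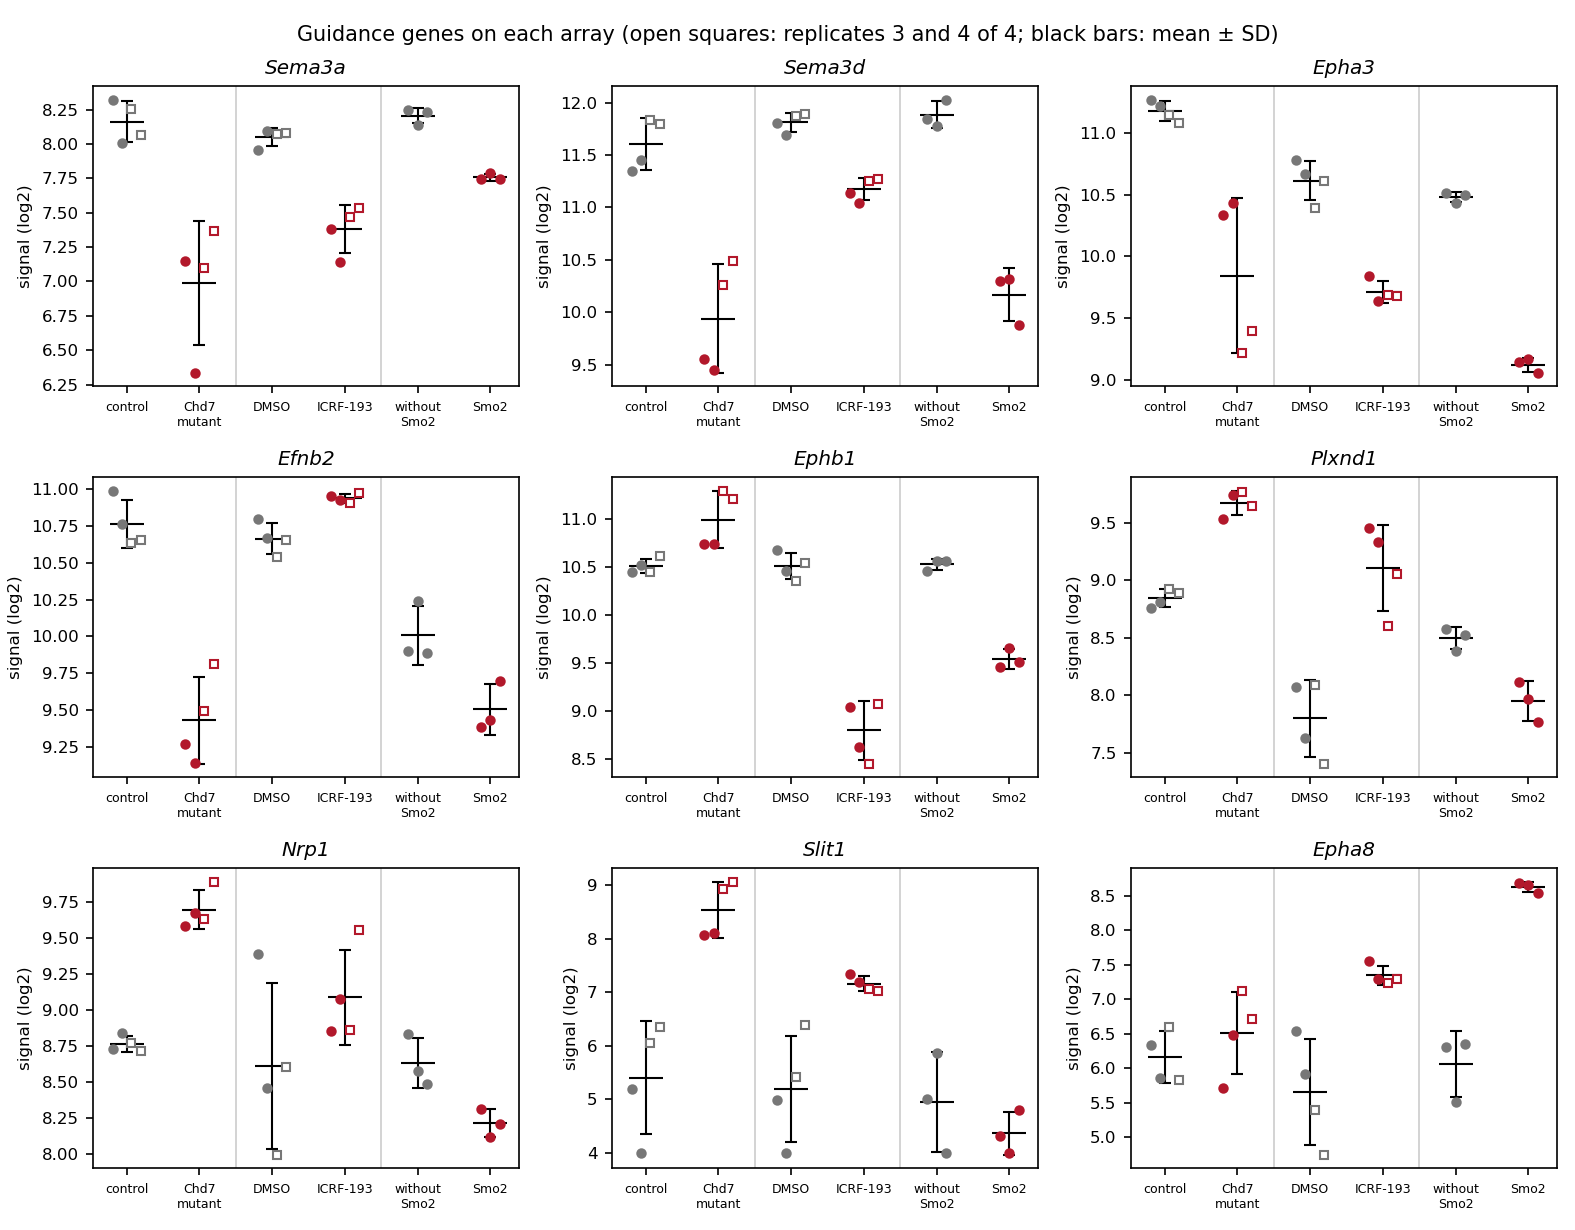
Log2 signal of 9 members on each of the 22 arrays, with filled circles for replicates 1 and 2 (and all Smo2 arrays), open squares for replicates 3 and 4, and bars for mean ± SD. Sema3a, Sema3d and Epha3 were lower in the treated group of all 3 experiments, Efnb2 fell in the mutant and with Smo2, Ephb1 fell with ICRF-193 and with Smo2, and Slit1, which lay under the limit on dim genes, was between 8.07 and 9.06 in mutant arrays and at most 6.35 in their controls.

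Some markers of other cells were called in the mutant, where 8.89% of all genes were called. Of 7 oligodendrocyte lineage markers 1 rose (Pdgfra, median of the list 1.11), of 8 markers of astrocytes and Bergmann glia 1 rose (Gja1, median 0.75), and of 6 markers of fibroblasts and pericytes 2 rose (Dcn and Pdgfrb, median 0.83). The mean signal of the oligodendrocyte list lay between 8.22 and 9.60 in control and between 9.82 and 10.50 in mutant arrays, that of the astrocyte list between 8.89 and 10.05 and between 9.30 and 11.18, and that of the fibroblast list between 8.23 and 9.10 and between 8.84 and 9.88. Dividing progenitor markers had a median of 0.68 with 1 of 5 called (Mcm6, higher), and granule lineage markers a median of -0.14 with 1 of 8 called (Pax6, lower). Microglial markers had a median of -0.92, with 0 of 5 called. Of 4 Purkinje cell markers Pcp4 fell (-0.98) and Rora rose (0.29), and of 3 markers of GABAergic interneurons 0 were called. Efnb2, Nrp1 and Plxnd1 are also known from blood vessels, and 5 of 6 endothelial markers lay under the limit, with a list mean between 5.04 and 5.57 in control and between 5.19 and 5.74 in mutant arrays. Y-linked genes fell, 3 of 3, with a mean over them of 8.73 ± 0.33 in control and 5.50 ± 1.60 in mutant arrays (SD, n = 4 each). Sex was not told apart in the study's cultures. The part of these cells and of sex in the members' changes was not tested. In bulk RNA fewer cells of a type and less RNA per cell cannot be told apart.

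With ICRF-193 the 10 members that passed were 3 ligands and 3 receptors that fell and 2 ligands and 2 receptors that rose. Ephb1, a receptor of B-type ephrins, fell most, by 3.27-fold, and Epha3, Sema6a, Sema3a, Sema3d and Plxna2 fell by 1.53-fold to 1.87-fold. Epha8 and Plxnd1 rose by 3.23-fold and 2.48-fold, and the A-type ephrins Efna3 and Efna1 by 1.78-fold and 1.35-fold. The called share was 25% of the members against 6.64% of all genes, with 15% of members lower (3.48% of genes) and 10% higher (3.16% of genes). Medians lay near 0, at 0.01 for ligands and -0.01 for receptors against 0.01 for all genes, and their signs changed with the scaling (0.02 for both without normalization, -0.03 for both with median centring).

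Ephb1 had 10.67, 10.46, 10.35 and 10.54 with DMSO and 9.04, 8.62, 8.45 and 9.07 with ICRF-193 and fell by 1.71 (95% interval -2.05 to -1.36, limma adjusted p = 0.000285), with every treated array under every control. Epha3 had 10.78, 10.67, 10.39 and 10.61 with DMSO and 9.84, 9.64, 9.68 and 9.68 with the drug and fell by 0.90 (95% interval -1.12 to -0.68, limma adjusted p = 0.000795). Plxna2, the plexin that Sema6a binds on granule cells, had 11.36, 11.33, 11.40 and 11.46 with DMSO, 10.83, 10.76, 10.74 and 10.77 with the drug, and fell by 0.61 (95% interval -0.76 to -0.47, limma adjusted p = 0.000744). Its arrays were tight in both groups, with SDs of 0.05 and 0.04. Sema6a itself had 11.44, 11.28, 11.62 and 11.71 with DMSO and 10.81, 10.96, 10.77 and 10.85 with the drug, a fall of 0.67 (95% interval -0.91 to -0.43, limma adjusted p = 0.00599), so that both sides of this pair fell. Sema3a had 7.95, 8.09, 8.07 and 8.08 with DMSO, 7.38, 7.14, 7.47 and 7.54 with the drug, and fell by 0.67 (95% interval -0.89 to -0.45, limma adjusted p = 0.00405). Sema3d had 11.80, 11.69, 11.87 and 11.89 with DMSO, 11.14, 11.04, 11.25 and 11.27 with the drug, and fell by 0.64 (95% interval -0.82 to -0.45, limma adjusted p = 0.00214). Neither overlapped between the groups.

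Plxnd1 rose by 1.31 (95% interval 0.81 to 1.81, limma adjusted p = 0.00868), from 8.08, 7.63, 8.09 and 7.41 with DMSO to 9.45, 9.33, 8.61 and 9.05 with ICRF-193. Epha8, a receptor of A-type ephrins, was dim in these cells, with 6.55, 5.92, 5.40 and 4.75 with DMSO and 7.56, 7.29, 7.23 and 7.29 with the drug, and rose by 1.69 (95% interval 0.93 to 2.44, limma adjusted p = 0.0186). Its control arrays had an SD of 0.76 and its treated ones of 0.14, and the groups did not overlap. Its mean over all arrays exceeded the limit on dim genes through the Smo2 arrays (6.36 over the 19 others, under the limit of 6.44), so that it was tested because it was high there, and without the filter the call with ICRF-193 was lost (adjusted p = 0.0649). Efna3, a lipid-anchored ligand of EphA receptors, rose by 0.83 (95% interval 0.53 to 1.13, limma adjusted p = 0.00652), from 6.55, 6.70, 7.06 and 6.82 to 7.74, 7.76, 7.36 and 7.60. Efna1, another such ligand, rose by 0.43 (95% interval 0.20 to 0.66, limma adjusted p = 0.0428), from 7.23, 7.22, 6.99 and 7.22 to 7.75, 7.63, 7.36 and 7.64. The other 3 A-type ephrins were not called, with -0.43 for Efna5 (adjusted p = 0.0745), 0.05 for Efna4 and 0.02 for Efna2. Groups did not overlap for 16 members (40%, against 14.3% of genes), the 10 called and 6 more. Plxna1 (0.52), Efnb1 (0.33), Efnb2 (0.27) and Plxnc1 (0.19) were higher, and Robo1 (-0.45) and Sema4g (-0.32) lower, with limma adjusted p between 0.0593 and 0.208. Nrp1, called in the mutant, had 9.38, 8.46, 7.99 and 8.60 with DMSO and 8.85, 9.08, 8.86 and 9.56 with the drug (change 0.48, adjusted p = 0.424), and its groups overlapped.

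Each called member kept its sign within both sets. With the replicate number as a block, 10 members fell in place of 6, and the set as a block gave 11. Over all genes the lower count went from 375 to 485 with the replicate number and to 613 with the set. Set means as samples left Ephb1 alone (limma adjusted p = 0.0342), with 0 members higher (4 at an unadjusted p under 0.05). Over all genes that fit called 60. The count of higher members dropped from 4 to 2 without DMSO replicate 3 or without ICRF-193 replicate 1 or 2. Over all genes the higher count went from 340 to 231, 242 and 216 in those fits. Epha8 lost its call in these 3 fits (adjusted p 0.0506 to 0.0570), and Efna1 in 7 of 8, all but the one without ICRF-193 replicate 3 (up to 0.111). Other bright probe sets of the called members had the same sign in 8 of 8 cases, and 5 passed. Of the marker lists, the oligodendrocyte lineage had a median of -0.62 with 1 of 7 called, and granule lineage markers -0.10 with 1 of 8 lower and 1 higher. GABAergic interneurons had -0.42 with 1 of 3 called (Gad1, lower) and dividing progenitors 0.26 with 1 of 5 called (Mycn, higher), and the other neural, glial and vascular lists had 0 called. Their part in the members' changes was not tested.

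With Smo2 most of the members fell. Of the 40, 27 were lower and 5 higher, 80% called where 68.6% of all genes were called, and 67.5% lower where 39% of genes were lower, against 12.5% and 29.7% higher. Among ligands 15 fell and 2 rose (median -0.45), and among receptors 12 fell and 3 rose (median -0.73), beside -0.09 over all genes. Median centring moved the all-gene median to 0.05 and turned the split of all genes from 4197 lower and 3194 higher to 3219 and 4051, while members split 24 to 7 and their medians stayed negative (-0.34 for ligands, -0.66 for receptors). The largest falls were in Plxna2, Sema3d and Efnb3, and Epha8, Plxnb2 and Sema7a rose by 5.92-fold, 3.36-fold and 2.53-fold. Of the 3 receptors that rose, Epha8 exceeded the limit on dim genes only through these Smo2 arrays.

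**Figure D3:**
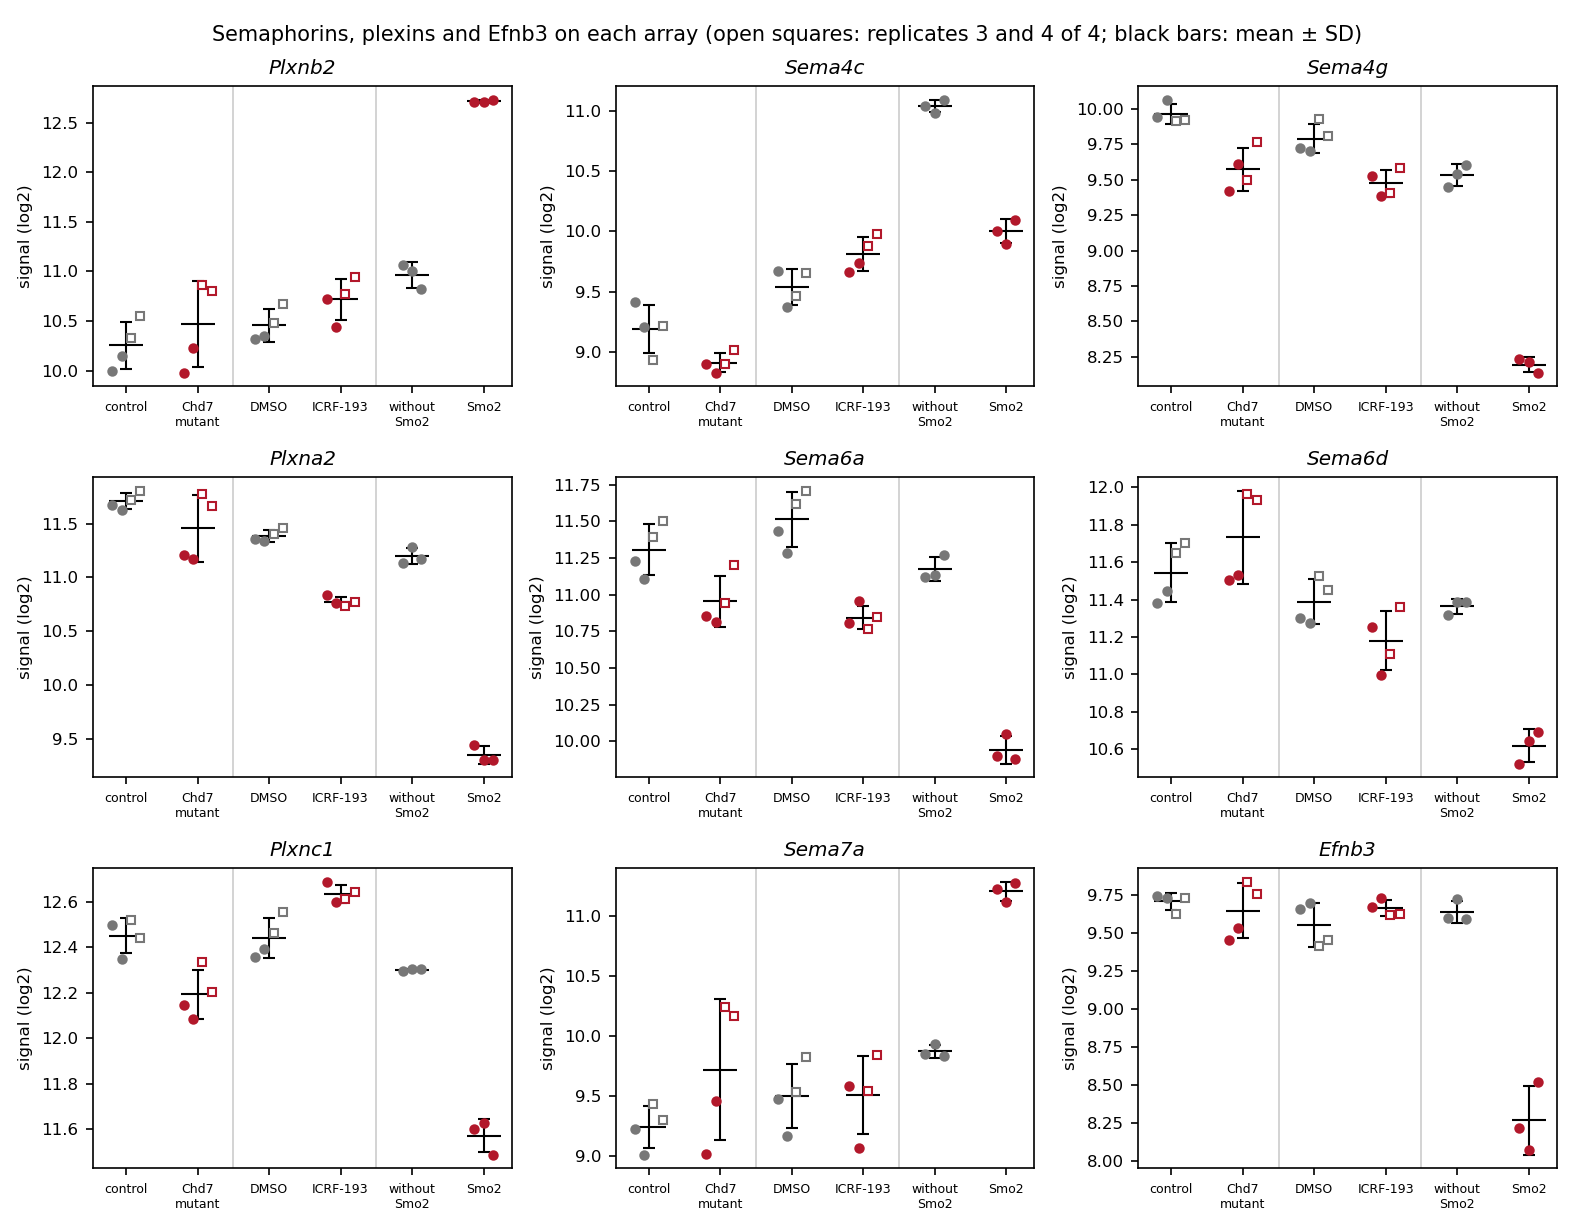
Log2 signal on each array of semaphorins set beside plexins they are known to bind, and of Efnb3, with filled circles for replicates 1 and 2 (and all Smo2 arrays), open squares for replicates 3 and 4, and bars for mean ± SD. With Smo2 Plxnb2 was at 12.70 to 12.73 while Sema4c and Sema4g were lower than without it, Plxna2 and Sema6a were lower together, and Plxnc1 was lower while Sema7a was higher.

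Several ligand and receptor systems were measured on both sides. In the Sema6a and Plxna2 system both fell. Plxna2 had 11.14, 11.28 and 11.17 without Smo2, 9.45, 9.30 and 9.31 with it, and fell by 1.84 (95% interval -2.01 to -1.67, limma adjusted p = 6.03e-06). Sema6a had 11.12, 11.14 and 11.27 without Smo2, 9.90, 10.05 and 9.88 with it, and fell by 1.23 (95% interval -1.41 to -1.06, limma adjusted p = 2.72e-05). Sema6d, a ligand of Plxna1, changed by -0.74 and Plxna1 by -0.98, and Plxna3, another plexin that works with neuropilins, by -0.84 (limma adjusted p up to 0.000315). With the mean of all probe sets of a gene, dim ones included, Sema6d had -0.19 (adjusted p = 0.138) and Plxna1 -0.08 (adjusted p = 0.573).

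In the B-plexin system the receptor rose while its ligands fell. Plxnb2 had 11.07, 11.01 and 10.82 without Smo2, 12.70, 12.71 and 12.73 with it, and rose by 1.75 (95% interval 1.57 to 1.93, limma adjusted p = 9.20e-06). Sema4c had 11.04, 10.98 and 11.09 without Smo2, 10.00, 9.90 and 10.10 with it, and fell by 1.04 (95% interval -1.21 to -0.87, limma adjusted p = 4.09e-05). Sema4g had 9.45, 9.54 and 9.61 without Smo2, 8.23, 8.21 and 8.14 with it, and fell by 1.34 (95% interval -1.49 to -1.19, limma adjusted p = 1.17e-05). No array of one group reached the range of the other for any of the 3 genes. Plxnb1, the receptor of Sema4d, rose by 0.56 (adjusted p = 0.000959), while a dimmer Plxnb1 probe set had 0.16 (limma adjusted p = 0.312). The probe sets of Sema4d disagreed, with 0.05 for the brighter (adjusted p = 0.525) and -1.39 for the dimmer (adjusted p = 0.000126 in the fit of 19714 probe sets). Other class 4 semaphorins fell, Sema4a by 0.71, Sema4b by 0.68 and Sema4f by 0.27 (limma adjusted p up to 0.0152), with Sema4b losing its call without control replicate 1 (0.0506) and Sema4f under median centring (-0.06, adjusted p = 0.415).

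The Sema7a and Plxnc1 system moved the opposite way from the B-plexins. Sema7a, a lipid-anchored semaphorin, rose by 1.34 (95% interval 1.18 to 1.49, limma adjusted p = 1.22e-05), from 9.85, 9.93 and 9.83 to 11.22, 11.12 and 11.28. Its receptor Plxnc1 fell by 0.73 (adjusted p = 7.80e-05), from 12.30 ± 0.0054 to 11.57 ± 0.074 (SD, n = 3 each, limma).

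For the secreted semaphorins, Sema3d had 11.85, 11.78 and 12.03 without Smo2, 10.30, 10.32 and 9.87 with it, and fell by 1.72 (95% interval -2.06 to -1.38, limma adjusted p = 9.23e-05), while Sema3a had 8.25, 8.14 and 8.23 without Smo2, 7.74, 7.79 and 7.75 with it, and fell by 0.45 (95% interval -0.58 to -0.32, limma adjusted p = 0.000492). Their co-receptors fell too. Nrp2, the neuropilin that binds Sema3f, had 8.74, 8.87 and 8.53 without Smo2, 7.35, 7.57 and 7.71 with it, and fell by 1.17 (95% interval -1.47 to -0.86, limma adjusted p = 0.000304), and Nrp1 had 8.83, 8.57 and 8.49 without Smo2, 8.31, 8.12 and 8.21 with it, and fell by 0.42 (95% interval -0.67 to -0.16, limma adjusted p = 0.0120). Plxnd1 had 8.58, 8.39 and 8.53 without Smo2, 8.12, 7.97 and 7.77 with it, and fell by 0.55 (95% interval -0.80 to -0.29, limma adjusted p = 0.00380). Nrp1 and Plxnd1 were thus lower here and higher in the Chd7 mutant.

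Among ephrins and their receptors Efnb3, a transmembrane ephrin, had 9.60, 9.72 and 9.59 without Smo2, 8.22, 8.07 and 8.52 with it, and fell by 1.37 (95% interval -1.66 to -1.08, limma adjusted p = 0.000126). Efnb2 had 9.90, 10.24 and 9.89 without Smo2, 9.38, 9.43 and 9.70 with it, and fell by 0.50 (95% interval -0.82 to -0.19, limma adjusted p = 0.0140), and Efnb1 fell by 0.45 (adjusted p = 0.0158, lost without Smo2 replicate 1 or 3, 0.0506 and 0.0524). Of the A-type ligands Efna1 had 6.95, 6.83 and 6.65 without Smo2, 5.35, 5.93 and 6.37 with it, and fell by 0.92 (95% interval -1.54 to -0.31, limma adjusted p = 0.0172, or adjusted p = 0.0549 without control replicate 1). Efna3 had 6.91, 6.46 and 6.50 without Smo2, 6.00, 6.14 and 5.96 with it, and fell by 0.59 (95% interval -0.91 to -0.27, limma adjusted p = 0.00779). Efna2, Efna4 and Efna5 were not called in any experiment. All 5 tested Eph receptors were called, 4 lower and 1 higher. Epha3 had 10.51, 10.44 and 10.50 without Smo2, 9.14, 9.17 and 9.06 with it, and fell by 1.36 (95% interval -1.50 to -1.22, limma adjusted p = 7.96e-06). Epha5, a further receptor of A-type ephrins, had 7.96, 8.30 and 8.13 without Smo2, 7.06, 6.95 and 7.09 with it, and fell by 1.10 (95% interval -1.33 to -0.86, limma adjusted p = 0.000132). Ephb1 had 10.46, 10.56 and 10.56 without Smo2, 9.46, 9.66 and 9.51 with it, and fell by 0.98 (95% interval -1.16 to -0.81, limma adjusted p = 5.63e-05), and Epha7 changed by -0.34 (adjusted p = 0.00727). Epha8 alone rose, by 2.56 (95% interval 2.01 to 3.12, limma adjusted p = 0.000137), from 6.31, 5.51 and 6.36 to 8.69, 8.65 and 8.54. These arrays brought it over the limit on dim genes, and in the fit of all 18193 genes its adjusted p by limma was 0.00143.

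Of the Slit system Robo2, a Slit receptor, had 7.52, 7.61 and 6.96 without Smo2, 6.20, 6.50 and 5.46 with it, and fell by 1.31 (95% interval -2.05 to -0.58, limma adjusted p = 0.00843), Slit2 rose by 0.40 (adjusted p = 0.00368), and Robo1 had 0.04 (adjusted p = 0.766), with -1.01 (adjusted p = 0.0223) for its dimmer probe set. Sema6c fell by 0.33 (adjusted p = 0.0137), but another of its probe sets had 0.12 and the mean of its probe sets 0.01. Besides Sema4d, Robo1, Efna2, Efna4 and Efna5, the members not called were Sema3c (-0.19), Sema6b (0.30) and Plxnb3 (-0.71), with limma adjusted p between 0.0700 and 0.694. A dimmer Plxnb3 probe set passed (-0.74, limma adjusted p = 0.0250). Groups did not overlap for 33 members (82.5%, against 73.5% of genes), the 32 called and Efna5 (0.27, adjusted p = 0.0982). Leaving out each array gave between 25 and 28 members lower and between 5 and 6 higher, beside 3860 to 3925 and 2946 to 3060 of all genes. The limits in the study's legend, an unadjusted p under 0.05 with a fold of 1.5, gave 19 lower and 3 higher. Over all genes those limits gave 2314 lower and 1748 higher, in place of 4197 and 3194. Other bright probe sets of the called members had the same sign in 26 of 29 cases, and 20 passed. Dividing progenitor markers rose in 5 of 5 cases with Smo2 (median 2.88, list mean between 9.69 and 10.01 without and at 12.64 on all 3 arrays with it). Granule lineage markers fell in 7 of 8 cases (median -0.66) and 1 rose, Atoh1, the factor that marks the progenitors. All 3 tested markers of GABAergic interneurons fell (median -1.40), as did all 5 of microglia (median -1.05), and 6 of 8 of astrocytes fell while 2 rose. Of 7 oligodendrocyte lineage markers 3 fell and 3 rose, and of 4 Purkinje cell markers 3 fell and 1 rose. Of 6 fibroblast and pericyte markers 0 fell and 1 rose. Over all genes 39% fell and 29.7% rose. The share of each cell type in the members' changes was not tested.

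Across the experiments 33 of the 40 members were called at least 1 time, and the 7 that were not, by their brightest probe sets, were Efna2, Efna4, Efna5, Plxnb3, Sema3c, Sema4d and Sema6b. Sema3a, Sema3d and Epha3 were lower in all 3, as were 0.733% of all genes (79 of 10771). They made up 3 of the 6 members lower in the mutant and 3 of the 6 lower with ICRF-193 (84 genes, 0.78%, were lower in both). All 6 members that fell with ICRF-193 fell with Smo2 too, as did 76.3% of all genes that fell with ICRF-193 (286 of 375), and so did 5 of the 6 that fell in the mutant, as did 78.6% of genes (324 of 412). Of the 84 genes lower in both, 79 (94%) were lower with Smo2. The sixth member was Robo1, whose probe sets disagreed with Smo2. Plxnd1 rose in the mutant and with ICRF-193 and fell with Smo2, Nrp1 rose in the mutant and fell with Smo2, and Efna1 and Efna3 rose with ICRF-193 and fell with Smo2. Epha8 rose with ICRF-193 and with Smo2 and had 0.35 in the mutant (adjusted p = 0.507). It was tested only because it was bright in the Smo2 arrays, and without the filter its call with ICRF-193 was lost.

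Members called with Smo2 alone had the following changes elsewhere, none of them called by the brightest probe set. Dimmer probe sets passed with ICRF-193 for Efnb1 (0.65, limma adjusted p = 0.00866) and Plxnc1 (0.67, adjusted p = 0.0111). Among the ligands Efnb3 had -0.06 in the mutant and 0.11 with ICRF-193, Efnb1 -0.05 and 0.33, Slit2 0.01 and -0.04, and Sema7a 0.48 and 0.01. The class 4 semaphorins had -0.36 and 0.38 for Sema4a, -0.14 and 0.27 for Sema4b, -0.28 and 0.27 for Sema4c, and -0.04 and 0.07 for Sema4f, in the same order. Sema6c had -0.13 and -0.15, and Sema6d 0.19 and -0.21. Among the plexins Plxna1 had 0.16 in the mutant and 0.52 with the drug, Plxna3 0.02 and 0.21, Plxnb1 0.37 and -0.08, Plxnb2 0.21 and 0.26, and Plxnc1 -0.26 and 0.19. Nrp2 had -0.21 and 0.42, Epha5 -0.78 and -0.14, Epha7 -0.90 and -0.58, and Robo2 -0.88 and -0.65, with Epha5, Epha7 and Robo2 negative in both. Members called with ICRF-193 but not in the mutant had -0.25 there for Plxna2, -0.35 for Sema6a, -0.12 for Efna1 and 0.02 for Efna3. Of the dimmer Sema6a probe sets, 1 passed in the mutant (-0.67, limma adjusted p = 0.0416) and another did not (-0.58, adjusted p = 0.113).

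Since Sema3a, Sema3d and Epha3 fell together, the 250 bases before their annotated starts are shown, from RefSeq on GRCm38.p6. Capitals mark E-boxes, CANNTG, the motif that bHLH factors such as Atoh1 and Neurod1 bind, read on both strands. Sema3a lies at chr5:13396534-13396783 on the plus strand, Sema3d at chr5:12382916-12383165 on the plus strand, and Epha3 at chr16:63864176-63864425 on the minus strand. Each is given from 5′ to 3′ along its gene.
Sema3a: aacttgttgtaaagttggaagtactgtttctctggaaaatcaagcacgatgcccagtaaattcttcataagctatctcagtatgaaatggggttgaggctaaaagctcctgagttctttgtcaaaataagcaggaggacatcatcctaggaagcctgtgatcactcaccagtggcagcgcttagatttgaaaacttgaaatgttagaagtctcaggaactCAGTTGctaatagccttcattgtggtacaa
Sema3d: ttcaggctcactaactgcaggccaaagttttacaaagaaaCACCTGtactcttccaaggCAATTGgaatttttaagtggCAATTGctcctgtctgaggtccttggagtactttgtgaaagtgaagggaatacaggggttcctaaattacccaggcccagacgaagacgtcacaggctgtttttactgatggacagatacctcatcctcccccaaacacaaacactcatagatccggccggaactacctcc
Epha3: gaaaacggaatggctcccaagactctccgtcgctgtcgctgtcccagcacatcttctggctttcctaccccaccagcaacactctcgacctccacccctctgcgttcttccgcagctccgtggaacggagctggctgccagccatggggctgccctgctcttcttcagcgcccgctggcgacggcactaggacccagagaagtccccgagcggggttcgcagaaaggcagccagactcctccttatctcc
The Sema3d window held 3 E-boxes (CACCTG and CAATTG at 2 places), the Sema3a window 1 (CAGTTG) and the Epha3 window 0. E-boxes stood in 45.3% of 53 such windows of 37 tested members, in 56.5% of the 11338 of genes tested and in 66.2% of all 32851. The GC-box GGGCGG stood in 67.9%, 58.8% and 32.7%, and TATAAA in 3.77%, 6.21% and 12.4%. The letters GACCACCCA, to which Gli factors bind, stood in 0 of the 53 members' windows and in 0.168% of those of genes tested. The 3 windows shown held no GC-box, TATAAA or GACCACCCA, so none of these could overlap an E-box. The median GC content was 64.4% for members, 60.4% for genes tested and 52.4% for all, and it was 62.8% for Epha3, 46.8% for Sema3d and 40.8% for Sema3a. These matches describe the letters of the windows.

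The changes in the Chd7 mutant and with ICRF-193 differed for 5 of the 40 members by limma's test of the difference over 16 arrays (12.5%, against 6.49% of all genes). Ephb1, which fell with the drug, had 10.45, 10.52, 10.45 and 10.61 in control and 10.73, 10.74, 11.29 and 11.20 in mutant arrays (change 0.48, adjusted p = 0.0685), a difference of 2.19 (limma adjusted p = 2.63e-05). All 4 mutant arrays lay above all 4 controls. For its ligand Efnb2 the order was the reverse, with a fall of 1.33 in the mutant and 10.80, 10.67, 10.54 and 10.65 with DMSO against 10.95, 10.93, 10.90 and 10.97 with ICRF-193 (change 0.27), a difference of -1.60 (limma adjusted p = 5.49e-05). Receptor and ligand of this B-type pair thus lay on opposite sides of the line of equal change. Sema3d fell in both, by more in the mutant, with a difference of -1.03 (limma adjusted p = 0.0372). Plxnc1 had -0.26 and 0.19, a difference of -0.45 (limma adjusted p = 0.00974), and Sema4c -0.28 and 0.27, a difference of -0.56 (limma adjusted p = 0.0360). For Epha3 the difference was -0.43 (limma adjusted p = 0.492) and for Sema3a -0.51 (limma adjusted p = 0.262), and neither passed. Sema3d lost its call in 11 of 16 fits that left out 1 array (adjusted p up to 0.0767, the 11 being without control 3 or 4, mutant 1 or 2, any DMSO array, or ICRF-193 replicate 1, 3 or 4) and Sema4c in 10 (up to 0.0723, without control 1, 2 or 4, mutant 1, 2 or 3, DMSO 2 or 3, or ICRF-193 replicate 3 or 4). Ephb1, Efnb2 and Plxnc1 passed in all 16, and under median centring Plxnc1 (adjusted p = 0.113) and Sema4c (0.0830) did not.

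**Figure D4:**
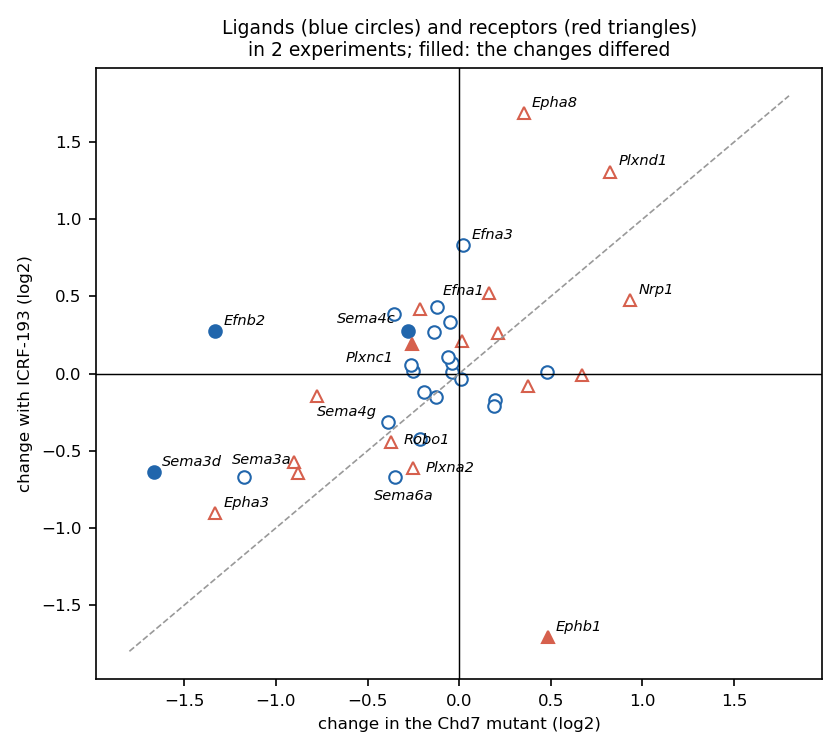
Change in the Chd7 mutant (horizontal, log2) against change with ICRF-193 (vertical, log2) for the 40 tested members, ligands as blue circles and receptors as red triangles, with equal changes on the dashed line. Filled symbols are the 5 members whose changes differed, among them Ephb1 at 0.48 and -1.71 and Efnb2 at -1.33 and 0.27.

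Topoisomerase inhibitors are known from other work to lower transcripts of long genes in neurons, and members were set against their annotated length. All 6 members that fell with the drug were longer than 100 kb (18 members were) and all 4 that rose were shorter (22 members). Among these 4 was Epha8, which exceeded the limit on dim genes only through the Smo2 arrays. Medians were -0.44 for long and 0.24 for short members, beside -0.08 and 0.02 for 1572 long and 9160 short genes, and 33.3% of long members fell against 15.6% of long genes. Pearson's r of the change with log10 length was -0.53 over the 40 members and -0.16 over 10732 genes, with genes not being independent replicates. It was -0.62 over the 23 ligands and -0.61 over the 17 receptors. The lengths ran from 125.95 kb for Sema6a and 197.08 kb for Plxna2 to 478.66 kb for Sema3a among those that fell, and from 9.04 kb for Efna3 to 40.53 kb for Plxnd1 among those that rose. Long members that did not pass included Robo1 and Robo2, the longest of all at 1019.97 and 1555.47 kb, with -0.45 and -0.65, and in the other direction Nrp1 (146.89 kb), Nrp2 (115.38 kb) and Plxnc1 (154.15 kb), with 0.48, 0.42 and 0.19. In the mutant 4 of the 6 that fell were long, with Efnb2 (44.01 kb) and Sema4g (14.65 kb) short, and r was -0.33 (-0.59 over receptors and -0.29 over ligands), beside 9.61% of long and 2.82% of short genes lower and an r of -0.04 over all genes. With Smo2 13 long (72.2%) and 14 short members (63.6%) fell, and r was -0.20, beside 55.1% of long and 36.2% of short genes and an r of -0.11.

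**Figure D5:**
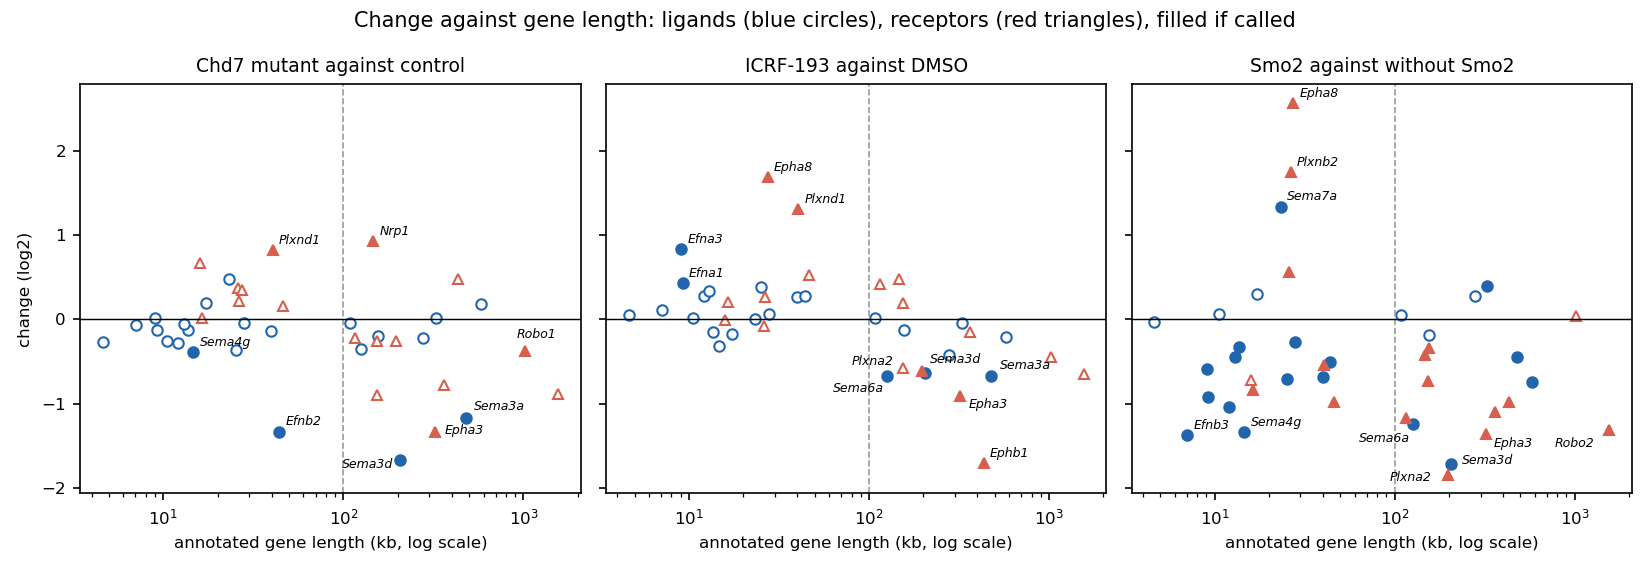
Change (log2) against annotated gene length (kb, log scale) of the 40 tested members in each experiment, ligands as blue circles and receptors as red triangles, filled where called, with the dashed line at 100 kb. With ICRF-193 all 6 filled symbols under 0 lie to the right of the line and all 4 above 0 to its left.

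Partners that carry these signals were listed from co-receptors, adaptors and effectors. Of 60 listed 57 were on the array and 51 tested. Over all genes 3.83% fell and 5.07% rose in the mutant, 3.48% and 3.16% with ICRF-193, and 39% and 29.7% with Smo2. Of the 51 partners 3 fell and 4 rose in the mutant (median -0.05). Those that fell were Flrt3, a co-receptor of Robo1, at -0.87, the adhesion molecule Nrcam at -0.70 and the collapsin response mediator Crmp1 at -0.37, and those that rose were the Rac regulator Chn1 at 1.24, the adaptor Grb10 at 1.20, the small GTPase Rras, a target of plexins, at 0.64 and Dpysl4 at 0.59. With ICRF-193 7 partners fell and 2 rose (median -0.07), with Nrcam at -1.21 and Srgap2, a Slit and Robo GTPase regulator, at -0.86. With Smo2 30 partners fell and 9 rose (median -0.34), with Chn2 at -1.97, L1cam at -1.82 and Flrt2 at 1.69 the furthest out. Dpysl4 rose in all 3.

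Among the 20 members under the limit on dim genes, 3 passed in a fit of all 18193 genes and are named for that, after their values were seen. They were 1 in the mutant, 0 with ICRF-193 and 2 with Smo2, where 815, 541 and 7249 of the 18193 genes passed. Slit1, a Robo ligand, had 5.19, 4, 6.06 and 6.35 in control and 8.07, 8.09, 8.92 and 9.06 in mutant arrays, a rise of 3.13 or beyond, since 1 control array was at the floor of 4 (limma adjusted p = 0.0295). With ICRF-193 it had 7.34, 7.19, 7.07 and 7.02 against 4.99, 4, 5.42 and 6.39 with DMSO (change 1.96 or beyond, with 1 DMSO array at the floor, adjusted p = 0.0876), and no array of one group reached the range of the other. A dimmer Slit1 probe set read 7.06, 6.31, 7.46 and 7.05 in mutant arrays and 5.05 and then 4 on each of the 3 others in control, but 5.17, 4.12, 5.26 and 6.79 with ICRF-193 against 5.22, 4.57, 5.56 and 5.05 with DMSO, where the groups overlapped. Slit1 thus stood higher in the mutant arrays in which the receptor Robo1 was lower. With Smo2 Sema5a, a transmembrane semaphorin, rose by 2.02 or beyond (adjusted p = 0.0264, with 5.22, 5.55 and 4 without and 6.51, 7.10 and 7.23 with it), and the secreted Sema3g by 1.02 (adjusted p = 0.0200). Ephb3, a receptor of B-type ephrins, was between 6.71 and 7.75 with ICRF-193 and between 5.10 and 6.42 with DMSO (adjusted p = 0.0996). The means of the 16 others lay between 4.00 for Ephb4, at the floor on all 22 arrays, and 6.38 for Ephb6. They were Epha1, Epha2, Epha4, Epha6, Epha10, Ephb4, Ephb6, Plxna4, Plxna4os1, Robo3, Robo4, Sema3b, Sema3e, Sema3f, Sema5b and Slit3.

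Sema3c, which can pull axons as well as repel them, was not called in any experiment, and its levels differed by experiment and set. Its mean over all arrays, 6.45, exceeded the limit of 6.44 on dim genes through the Chd7 control arrays (6.08 over the 18 others). It was thus tested because it was high there, and its higher level in that experiment is no separate result. It had 8.66, 8.41, 7.78 and 7.75 in control and 8.99, 8.82, 6.94 and 7.08 in mutant arrays, 6.85, 6.79, 5.05 and 4.82 with DMSO and 6.51, 6.19, 5.42 and 4.90 with ICRF-193, and 4.87, 5.10 and 5.81 without and 5.34, 4.29 and 5.59 with Smo2. Replicates 1 and 2 were higher than replicates 3 and 4 in all 4 groups that had them, and the groups overlapped in each experiment.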

How the data were processed

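RNA of 22 cultures was hybridised to Affymetrix whole-genome mouse expression arrays. The authors deposited linear signal intensity for 45101 probe sets. The 2% trimmed mean of the deposited values was 500 on every array, and how probes were summarised and scaled is not stated. Of the probe sets 34958 had 1 gene symbol, 932 several and 9211 none. Here signals under 16 were set to 16, converted to log2 and quantile normalized over the 22 arrays. Each gene was taken by its brightest probe set with 1 symbol, and the 10771 of 18193 genes whose mean reached 6.44, the median over all probe sets, were tested. Arrays carry no read depth, so their number limits the precision. Among 231 pairs of arrays 0 were identical.

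R 4.3.3 with limma 3.58.1 (lmFit and eBayes) was used to fit each comparison on its own arrays, with Benjamini-Hochberg adjustment over all genes tested. The difference of the Chd7 and ICRF-193 changes was a contrast over their 16 arrays. The fit was also run on simulated arrays, drawn independently within each group and without the sets. That run cannot show how the fit behaves where arrays fall into sets. Figures were drawn with matplotlib 3.10.9 and tables made with pandas 2.3.3 in Python 3.11.15. The replicates are labelled biological, and p-values measure the spread between these samples. Replicate numbers come from the labels. Deviations of same-numbered treated and control samples correlated at 0.39 to 0.42 in the Chd7 and 0.28 to 0.41 in the ICRF-193 experiment. With Smo2 they correlated at -0.01 to 0.03. Samples of the same set with another number correlated at 0.38 to 0.44 and 0.30 to 0.35. These values show the sets, and do not show that numbers pair samples within a set.

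The members and gene lists were chosen with earlier results of these data known. Every called member was named with its changes, and array values were given for those called in 2 or more comparisons or with a change of at least 1. Alternatives were other scalings, floors (32), filters (none, or a mean of 8), all probe sets or their mean, the replicate number or set as a block, sets alone, other variance models, 1 fit of all arrays, another call rule and leaving out each array. Gene lengths and promoters came from RefSeq.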

Additional observations from a re-analysis of the deposited data

Results flagged for a closer look

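In 4 of 132 groups of 4 arrays, 1 array lay apart from the other 3 by more than Dixon's 95% limit for a group of that size, where chance gives about 1 in 20. The gap was 0.942 of the group's range for Efna1 with DMSO (6.99 against 7.22 to 7.23), 0.972 for Efnb1 with DMSO (8.46 against 8.88 to 8.89), 0.832 for Sema3a with DMSO (7.95 against 8.07 to 8.09) and 0.845 for Efnb3 in the Chd7 controls (9.63 against 9.73 to 9.75).

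The change in the Chd7 mutant minus that with ICRF-193 passed limma's test of the difference for Ephb1 (2.19), Efnb2 (-1.60), Sema3d (-1.03), Sema4c (-0.56) and Plxnc1 (-0.45).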

How the results depend on the processing

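Of 1016 alternative values of the 55 called changes, 885 kept direction and call, 130 kept the direction but lost the call, and 1 turned, the mean of the Sema6c probe sets with Smo2 (0.0080). Single other probe sets turned with Smo2 for Efnb1 (0.029), Efnb2 (0.044) and Sema6c (0.12). In all alternatives 19 of the 55 were called.

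With the replicate number as a block, the count of members lower with ICRF-193 went from 6 to 10, and all 8 calls in the mutant, 10 with ICRF-193, 32 with Smo2 and 5 differences were kept. Over all genes the lower count with ICRF-193 went from 375 to 485. The set as a block gave 12 lower and 5 higher members in the mutant (6 and 2 in the report), 11 lower with ICRF-193 and 9 differences (5 in the report). Over all genes it gave 1010 lower and 1354 higher in the mutant (412 and 546 in the main fit). With ICRF-193 it gave 613 genes lower (375), and 1504 genes differed (699). Set means as samples gave 0 lower and 0 higher in the mutant by limma (7 and 2 at an unadjusted p under 0.05), and 1 lower and 0 higher with ICRF-193 (4 higher unadjusted). Over all genes they called 0 in the mutant and 60 with ICRF-193. Within replicates 1 and 2 alone 2 members were lower and 2 higher with ICRF-193, within replicates 3 and 4 alone 1 and 1, and 7 were higher in the mutant. Over all genes the first fit gave 181 lower and 123 higher with ICRF-193, and the second 131 and 83. In the mutant 638 genes were higher within replicates 1 and 2 and 934 within replicates 3 and 4. With no filter 3 members were lower in the mutant, 2 higher with ICRF-193, and 3 differed, beside 343, 245 and 577 of 18193 genes. A filter at a mean of 8 left 2 higher with ICRF-193 and 3 with Smo2, beside 322 and 2671 of 8490 genes. The unadjusted p with a fold of 1.5 gave 19 lower and 3 higher with Smo2, beside 2314 and 1748 of all genes. Median centring left 3 differences, and 1 fit of all 22 arrays gave 10 lower in the mutant. Over all genes median centring left 382 differences in place of 699, and the fit of all arrays gave 652 lower in the mutant in place of 412. Fewer genes enter the fit filtered at a mean of 8, more enter the fit without a filter, and fewer samples enter the set means and single sets. The set block used the same 10771 genes and the same arrays as the main fit. The cause of these shifts was not tested.

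Leaving out 1 array gave 3 to 5 members lower and 2 to 2 higher in the mutant, 6 to 7 lower and 2 to 4 higher with ICRF-193, 25 to 28 lower and 5 to 6 higher with Smo2, and 3 to 5 differences. Over all genes these fits gave 215 to 320 lower and 311 to 400 higher in the mutant, and 261 to 320 and 216 to 282 with ICRF-193. With Smo2 they gave 3860 to 3925 and 2946 to 3060, and 539 to 673 genes differed between mutant and drug. Dim members are limited by the floor and by 3 or 4 arrays a group.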
